A study of Mus musculus with 15 samples.

Results

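The 9 genes described here encode enzymes and partners that act on isocitrate, 2-hydroxyglutarate and cytosine methylation: Idh1, Idh2, D2hgdh, Tet1, Tet2, Tet3, Dnmt1, Dnmt3a and Uhrf1. They were chosen by symbol, with earlier results of these data known, and all 9 are among the 38172 gene symbols of the deposited table of TPM (transcript abundance scaled to a fixed total per library). The table holds 15 RNA-seq libraries of mouse brain tumours from a model of low-grade glioma with mutant IDH. Each tumour was started by injecting chicken DF-1 cells expressing R132H-mutant IDH together with DF-1 cells expressing PDGFB into the brain of nesin-TVA mice, as the labels spell the strain. Treatment began after MRI on day 28, lasted 9 days, and tumours were collected on day 37.

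The anti-PD1 group (n = 4) received 1 mg of antibody against the T cell receptor PD-1 in 100 µl PBS, with 2 injections per week. The vorinostat group (n = 4) received 1 mg of this histone deacetylase inhibitor daily in 100 µl of a DMSO, PEG-300 and Tween-20 solvent. The combination group (n = 4) received both agents. The control group (n = 3) received the daily solvent alone. As described, the anti-PD1 and control groups thus also differ in solvent and injection schedule. In their comparison, and in the interaction, antibody and solvent cannot be told apart. The anti-PD1 group, as described, also lacks the daily solvent that came with vorinostat in the combination group. In combination vs anti-PD1, vorinostat cannot be told apart from solvent and injection schedule. All 4 groups carry the mutant IDH and PDGFB, so no comparison here contrasts mutant with wild-type IDH. The labels do not say whether the virus carries mouse or human IDH, and Idh1 TPM is therefore not a measure of the mutant allele. The labels do not state that libraries of a group come from separate animals, and p-values measure the spread between these samples.

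Idh1 in the cytosol and peroxisome, and Idh2 in the mitochondrion, convert isocitrate to 2-oxoglutarate, and glioma mutations at a conserved arginine make the enzyme produce D-2-hydroxyglutarate instead. D2hgdh oxidises that product back to 2-oxoglutarate. TET enzymes use 2-oxoglutarate to oxidise 5-methylcytosine and are inhibited by D-2-hydroxyglutarate, Dnmt3a sets new methylation, and Dnmt1, guided by Uhrf1 to hemimethylated DNA, copies it after replication.

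The arginine codon named in the labels is shown first, because it defines the model. The window holds mouse reference coding bases from a GENCODE vM21 transcript, 5′ to 3′, with the codon in capitals. Idh1 (chr1:65158616-65186500, minus strand, GRCm38) has CGA at codon 132, shown with coding bases 364 to 426.
Idh1: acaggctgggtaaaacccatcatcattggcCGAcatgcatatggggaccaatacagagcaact

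Promoter letters are shown for Dnmt1 and Uhrf1, the 2 of the 9 genes with an E2F match. In the 250 bases before each RefSeq start site (GRCm38.p6), both strands were searched for 3 sets of letters, chosen after the sequences had been seen. The E2F words TTTCGCGC, TTTGGCGC, TTTCCCGC and TTTGCCGC occurred in 2 of the 9 genes, Dnmt1 and Uhrf1, in 4 of 23 cell cycle genes and in 2.16% of 27025 genes. The CHR words TTTGAA and TTCGAA occurred in 1 of the 9 genes, 9 of 23 cell cycle genes and 19.6% of all genes. CCAAT occurred in 5 of the 9 genes, 19 of 23 cell cycle genes and 37.5% of all genes. The promoters with an E2F match held more CG letter pairs than 90.4% (Dnmt1) and 94.1% (Uhrf1) of all promoters. The E2F matches are shown in capitals in their gene's direction. The Dnmt1 window (chr9:20952824-20952853, minus strand, match on the opposite strand) lies in an annotated exon and UTR of Dnmt1. The Uhrf1 window (chr17:56304117-56304146, plus strand) lies within the gene but in no exon. A match is a description of letters, not a binding site.
Dnmt1: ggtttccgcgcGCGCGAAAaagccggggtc
Uhrf1: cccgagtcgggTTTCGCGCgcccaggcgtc

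The deposited TPM divide reads by the gene span, introns included, and whole reads recovered from them came to between 80.0 M and 159.3 M per library. All 9 genes had at least 1 TPM in every library, with between 392 reads (the lowest D2hgdh value) and 28250 reads (the highest Dnmt3a value). The kit does not mark strand, so reads of Tet2, Tet3 and Dnmt3a cannot be told from those of the genes Gm42567, B230319C09Rik and Dnmt3aos, which overlap them on the opposite strand. Levels between genes were compared per exon length, as RPKM over the exons (recovered reads per kb of exon, scaled to library size), averaged over 15 libraries. Idh1 had the highest level at 41.1, followed by Dnmt1 at 19.6 and Idh2 at 18.2. Uhrf1 stood at 9.84 and Dnmt3a at 9.79, and below them came Tet3 at 6.80, Tet2 at 3.94, Tet1 at 1.67 and D2hgdh at 1.20. Dnmt1 exceeded Idh2 in 9 of 15 libraries and Uhrf1 exceeded Dnmt3a in 9 of 15, so these neighbours have no fixed order. In the anti-PD1 group Uhrf1, at 5.34, stood below Tet3, at 6.87, on this scale. Idh2 exceeded Uhrf1 in 14 of 15 libraries, and each of the other neighbours kept its order in 15 of 15.

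The comparisons ask whether either agent, or both, went with another level of these genes. None of the 9 genes passed an adjusted p of 0.05 in any comparison (limma on log2(TPM + 1), 19390 genes tested, Benjamini-Hochberg over all of them). For anti-PD1 vs control 0 of 9 passed, where 5.29% of all genes did, 344 of them higher and 682 lower. Idh1, Tet1, Dnmt1 and Uhrf1 had an unadjusted p under 0.05 there, as did 34.2% of all genes. In vorinostat vs control 0 of 9 passed against 0.00516% of all genes, in combination vs control 0 of 9 against 0.0206%, and in combination vs vorinostat 0 of 9 against 0.0103%. In combination vs anti-PD1 0 of 9 passed against 0.0155%, or 3 genes. With the replicate number as a block 115 genes passed there, and still 0 of the 9. In the fit without the block Idh1 and Dnmt1 had an unadjusted p under 0.05, as did 23.5% of all genes. Of the 54 changes in all comparisons, these 6 had a 95% interval that excludes 0. A p that misses the threshold does not show equal levels, and the intervals give the range of sizes. The number of all genes called in anti-PD1 vs control, 1026, was 4982 when anti-PD1 library 3 was left out and 0 when control library 1 was.

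**Figure D1:**
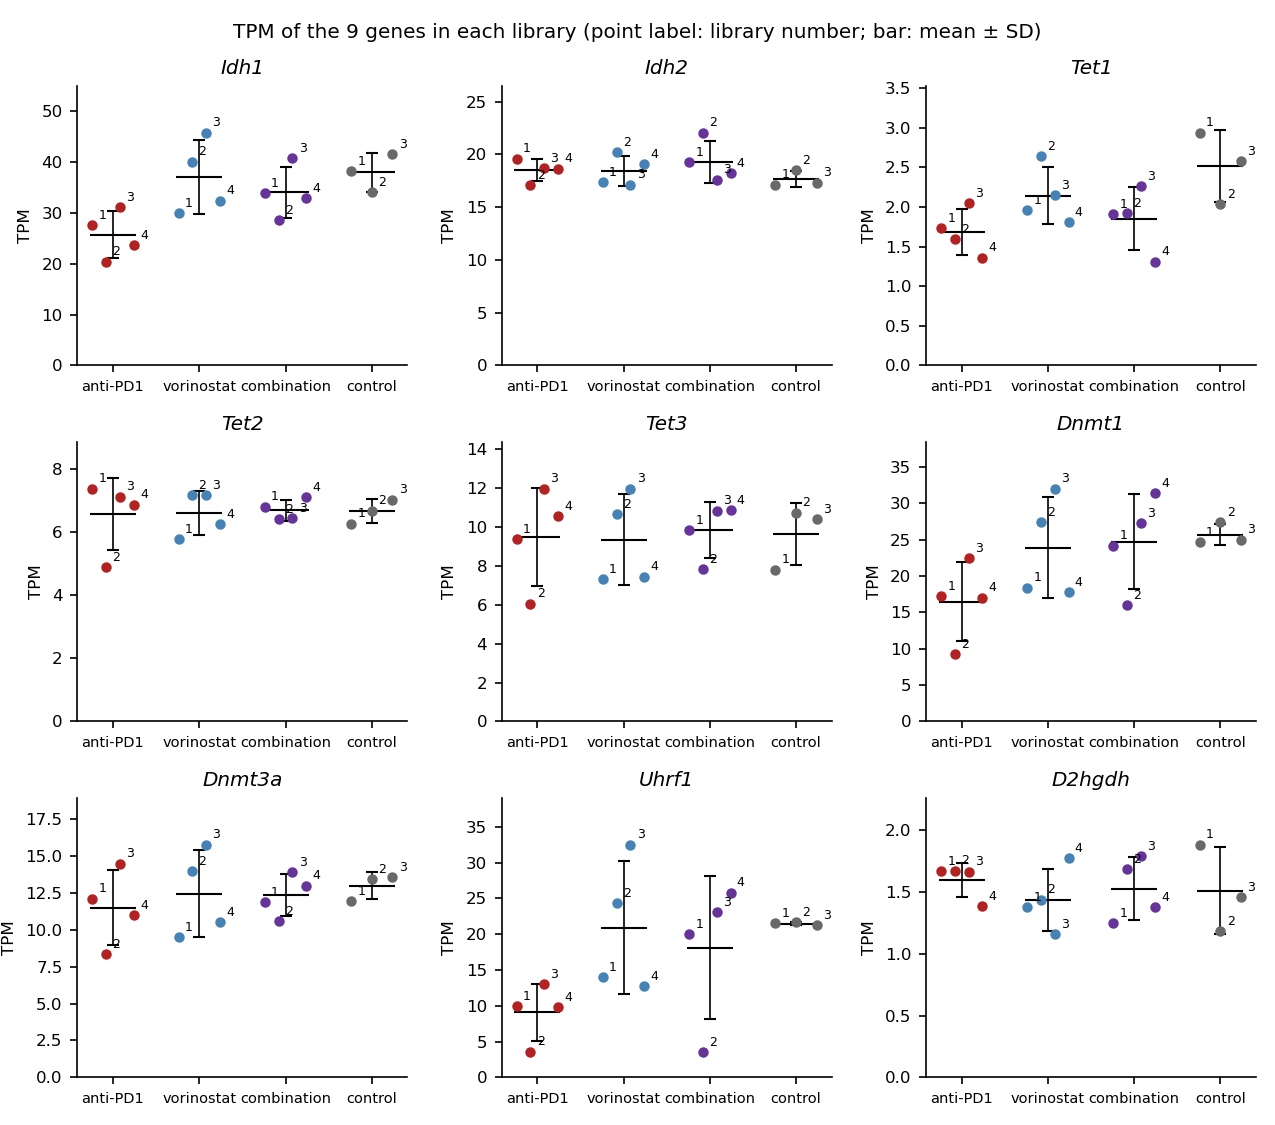
TPM (y axis, from 0) of each gene in the 15 libraries by group (x axis), with library numbers beside the points and bars for mean ± SD. Idh1, Dnmt1 and Uhrf1 are lower in every anti-PD1 library than in every control library, while Idh2 lies between 17.1 and 22.1 TPM throughout.

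Idh1, the cytosolic isocitrate dehydrogenase, was lower in each anti-PD1 library than in each control library. It had 27.6, 20.4, 31.1 and 23.6 TPM in the anti-PD1 libraries, 30.0, 40.1, 45.7 and 32.4 TPM in the vorinostat libraries and 33.9, 28.6, 40.7 and 32.9 TPM in the combination libraries, against 38.1, 34.1 and 41.6 TPM in the control libraries. The vorinostat and combination groups overlap the controls. Anti-PD1 library 2 was the lowest of all 15 and vorinostat library 3 the highest. Against control, the change with anti-PD1 was -0.56 on the log2(TPM + 1) scale (SE 0.17, 95% interval -0.92 to -0.19, limma adjusted p = 0.0622), which did not pass. In combination vs anti-PD1 it was 0.40 (SE 0.16, 95% interval 0.06 to 0.74, limma adjusted p = 0.185), with overlapping groups. In bulk samples fewer cells of a type and less RNA per cell cannot be told apart. The change in anti-PD1 vs control passed without anti-PD1 library 3 (-0.65, adjusted p = 0.0253) and without vorinostat library 3 (-0.56, adjusted p = 0.0464), fits in which 25.8% and 10.1% of all genes passed. With the replicate number as a block it passed too (-0.52, limma adjusted p = 0.0350), as did 13.5% of all genes.

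Idh2, the mitochondrial isocitrate dehydrogenase, varied least of the 9 genes, with a coefficient of variation of 7.49% over the 15 libraries. It averaged 18.5 ± 1.05 TPM with anti-PD1, 18.5 ± 1.45 TPM with vorinostat and 19.3 ± 1.97 TPM with the combination, against 17.7 ± 0.754 TPM in controls (SD, n = 4, 4, 4 and 3). The change was 0.06 in anti-PD1 vs control (95% interval -0.14 to 0.26), 0.06 in vorinostat vs control (-0.14 to 0.26) and 0.12 in combination vs control (-0.08 to 0.32). Under median-of-ratios scaling these changes of Idh2 were 0.22 (limma adjusted p = 0.129), 0.12 and 0.13. Combination library 2, at 22.1 TPM, was the highest. D2hgdh, the dehydrogenase of D-2-hydroxyglutarate, was the lowest of the 9 genes per exon length. It averaged 1.60 ± 0.140 TPM with anti-PD1, 1.43 ± 0.253 TPM with vorinostat and 1.52 ± 0.254 TPM with the combination, against 1.51 ± 0.351 TPM in controls. Its change was 0.06 in anti-PD1 vs control (95% interval -0.22 to 0.34), and 0.16 under median-of-ratios scaling (limma adjusted p = 0.398). The control libraries alone spread from 1.18 to 1.88 TPM.

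The TET dioxygenases differed from each other in how they varied. Tet1 had 1.73, 1.60, 2.05 and 1.36 TPM in the anti-PD1 libraries, 1.96, 2.64, 2.15 and 1.81 TPM in the vorinostat libraries and 1.91, 1.92, 2.26 and 1.31 TPM in the combination libraries, against 2.94, 2.03 and 2.57 TPM in the control libraries. The groups overlap, since anti-PD1 library 3 lies just above control library 2. The change of Tet1 was -0.39 in anti-PD1 vs control (SE 0.15, 95% interval -0.70 to -0.07, limma adjusted p = 0.0958) and -0.31 in combination vs control (SE 0.15, 95% interval -0.62 to 0.01, limma adjusted p = 0.895). Without anti-PD1 library 3 the change in anti-PD1 vs control was -0.45 with an adjusted p of 0.0485, in the fit that called 25.8% of all genes.

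Tet2 averaged 6.58 ± 1.14 TPM with anti-PD1, 6.60 ± 0.701 TPM with vorinostat and 6.70 ± 0.328 TPM with the combination, against 6.67 ± 0.384 TPM in controls. Tet3 averaged 9.50 ± 2.52 TPM with anti-PD1, 9.36 ± 2.34 TPM with vorinostat and 9.86 ± 1.42 TPM with the combination, against 9.65 ± 1.60 TPM in controls. For both genes the group means lay within the spread of every group. Anti-PD1 library 2 was the lowest of all 15 for both, at 4.89 TPM of Tet2 and 6.06 TPM of Tet3. The change in anti-PD1 vs control was -0.03 for Tet2 (95% interval -0.29 to 0.23) and -0.05 for Tet3 (-0.51 to 0.42), and both signs turn under median-of-ratios scaling, to 0.11 and 0.10.

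Dnmt1, the maintenance methyltransferase, was lower in each anti-PD1 library than in each control library. It had 17.2, 9.30, 22.4 and 17.0 TPM in the anti-PD1 libraries, 18.4, 27.4, 32.0 and 17.7 TPM in the vorinostat libraries and 24.2, 16.0, 27.3 and 31.4 TPM in the combination libraries, against 24.6, 27.4 and 25.0 TPM in the control libraries. Vorinostat and combination libraries lie on both sides of the controls. The change was -0.67 in anti-PD1 vs control (SE 0.28, 95% interval -1.28 to -0.06, limma adjusted p = 0.118) and 0.58 in combination vs anti-PD1 (SE 0.26, 95% interval 0.02 to 1.14, limma adjusted p = 0.207). That first change was -0.43 (adjusted p = 0.304) without anti-PD1 library 2, and -0.83 (adjusted p = 0.0497) without anti-PD1 library 3, where 25.8% of all genes passed. In combination vs anti-PD1 the change of Dnmt1 was 0.34 without anti-PD1 library 2. Dnmt3a, which sets new methylation, averaged 11.5 ± 2.53 TPM with anti-PD1, 12.4 ± 2.93 TPM with vorinostat and 12.3 ± 1.43 TPM with the combination, against 13.0 ± 0.908 TPM in controls. Its change in anti-PD1 vs control was -0.19 (95% interval -0.58 to 0.20), and all its groups overlap. It was -0.056 without anti-PD1 library 2 and -0.30 without anti-PD1 library 3.

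Uhrf1, which brings Dnmt1 to replicated DNA, varied most, with 9.09 times as many TPM in the highest library as in the lowest. It had 9.96, 3.62, 13.0 and 9.80 TPM in the anti-PD1 libraries, 14.0, 24.3, 32.5 and 12.8 TPM in the vorinostat libraries and 20.0, 3.58, 23.1 and 25.8 TPM in the combination libraries, against 21.5, 21.7 and 21.3 TPM in the control libraries. Every anti-PD1 library is below every control library. Combination library 2 thus lies with anti-PD1 library 2, far below the 3 other combination libraries. The change was -1.27 in anti-PD1 vs control (SE 0.55, 95% interval -2.45 to -0.08, limma adjusted p = 0.128) and -0.51 in combination vs control (SE 0.55, 95% interval -1.70 to 0.68). Without combination library 2, which also sets the shared spread, the first was -1.27 with an adjusted p of 0.0464, where 9.72% of all genes passed, and the second 0.09.

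Idh1, Dnmt1 and Uhrf1 are the 3 of 9 genes that were lower without overlap in anti-PD1 vs control, where 20.5% of all genes tested were lower in this way. None of the 9 separated the groups in vorinostat vs control, combination vs control, combination vs anti-PD1 or combination vs vorinostat, against 4.46%, 7.65%, 6.63% and 3.15% of all genes in either direction. The median change of all genes in anti-PD1 vs control was -0.14, and -0.01 under median-of-ratios scaling. Relative to that median, Idh1 lay at -0.41, Dnmt1 at -0.53, Uhrf1 at -1.12 and Tet1 at -0.25, and Idh2 at 0.20. The median change of the 9 genes was -0.19. The interaction, which asks whether the anti-PD1 difference is another one with vorinostat than without, passed for 0 of 9 genes, against 0.0103% of all genes. It was 0.45 for Idh1 (SE 0.23, 95% interval -0.05 to 0.94, limma adjusted p = 0.321), 0.72 for Dnmt1 (SE 0.38, 95% interval -0.11 to 1.54, adjusted p = 0.329) and 0.89 for Uhrf1 (SE 0.75, 95% interval -0.73 to 2.51, adjusted p = 0.489). The interaction of Uhrf1 was 0.55 without anti-PD1 library 2 and 1.49 without combination library 2.

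**Figure D2:**
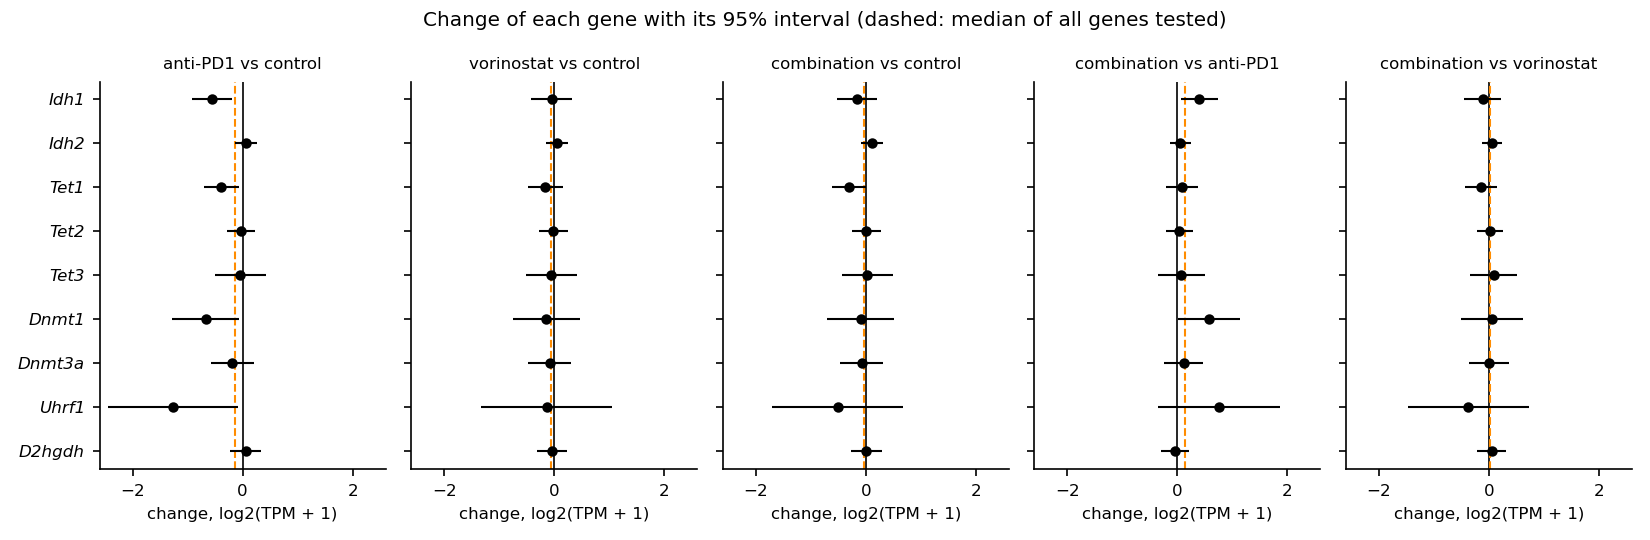
Change of each gene (x axis, log2(TPM + 1)) with its 95% interval in 5 comparisons, the first-named group over the second, with the median of all genes dashed. In anti-PD1 vs control the intervals of Idh1, Tet1, Dnmt1 and Uhrf1 lie below 0, and in combination vs anti-PD1 those of Idh1 and Dnmt1 lie above 0. No change passed the adjusted threshold.

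Ratios within a library do not depend on how libraries were scaled and are given as a description. The log2 ratio of Dnmt1 to Dnmt3a was 0.15 to 0.63 in the anti-PD1 libraries, 0.76 to 1.02 with vorinostat and 0.59 to 1.27 with the combination, against 0.88 to 1.05 in controls. The ratio of Uhrf1 to Dnmt1 was between -1.36 and -0.79 in the anti-PD1 libraries and -0.47 to 0.02 with vorinostat, against -0.34 to -0.20 in controls. Combination library 2 had -2.16 and the 3 other combination libraries had -0.27, -0.24 and -0.28. So the anti-PD1 libraries had less Dnmt1 relative to Dnmt3a, and less Uhrf1 relative to Dnmt1, than each control library. Of single genes tested, 20.5% were lower and 8.26% higher without overlap in this comparison. The share among other pairs of genes was not computed. The ratio of Idh2 to Idh1 averaged -0.46 ± 0.21 with anti-PD1, -0.99 ± 0.30 with vorinostat and -0.81 ± 0.34 with the combination, against -1.10 ± 0.20 in controls. This ratio also did not overlap, at -0.73 to -0.26 in the anti-PD1 libraries and -1.26 to -0.88 in controls. Tet3 to Tet2 averaged 0.50 ± 0.21 with anti-PD1 against 0.52 ± 0.19 in controls.

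**Figure D3:**
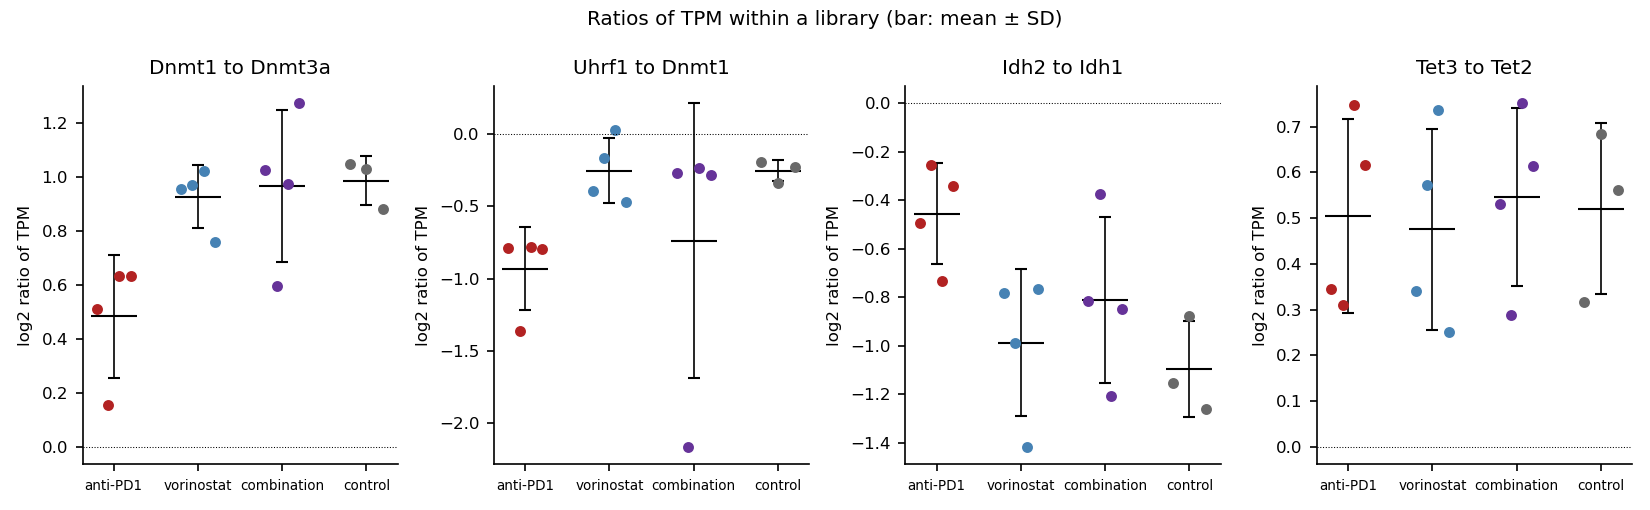
Log2 ratio of TPM (y axis) of 4 pairs of genes in each library by group (x axis), with bars for mean ± SD. The anti-PD1 points of Dnmt1 to Dnmt3a and of Uhrf1 to Dnmt1 lie below all control points, and those of Idh2 to Idh1 above them. Combination library 2 stands apart at -2.16 for Uhrf1 to Dnmt1.

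Levels of several members were correlated with those of cell cycle genes. The mean log2(TPM + 1) of 27 cell cycle genes was 3.01 to 4.33 in the anti-PD1 libraries, against 5.02 to 5.30 in control libraries, and combination library 2 had 3.08. With anti-PD1, against control, 2 of the 27 fell and 25 did not pass, beside 5.29% of all genes called in either direction. Their median change was -1.43, where that of all genes was -0.14. The 2 are Ccne2 (10.6 ± 1.50 TPM with anti-PD1 and 16.7 ± 0.913 TPM in controls, change -0.63, SE 0.14, limma adjusted p = 0.0336) and Ccne1 (7.41 ± 0.327 TPM with anti-PD1 and 10.2 ± 0.711 TPM in controls, change -0.41, SE 0.11, limma adjusted p = 0.0486), the cyclins that drive entry into S phase. Over the 15 libraries Uhrf1 had a Pearson r of 0.99 with that mean (Spearman rho 0.89), Dnmt1 0.91 (rho 0.89) and Idh1 0.90 (rho 0.98), with permutation p-values of r, adjusted over 18 relations, of 6e-05, 6e-05 and 0.00018. Those of rho were 0.000252, 0.000252 and 9e-05. The permutations shuffled all 15 libraries without regard to group, so differences between groups enter these p-values. The share of all genes with relations this close was not computed. Dnmt3a had r = 0.77 (permutation adjusted p = 0.00187) and rho 0.70 (permutation adjusted p = 0.0103). Without anti-PD1 library 2 and combination library 2, the farthest from the median, r was 0.97 for Uhrf1, 0.89 for Dnmt1, 0.95 for Idh1 and 0.63 for Dnmt3a. As deviations from group means, pooled over all groups and with those libraries kept, it was 0.99, 0.90, 0.83 and 0.81. The relation was not computed for each group alone. Among the controls, Uhrf1 and Dnmt1 were highest in library 2 (21.7 and 27.4 TPM), which had the lowest cell cycle mean, 5.02.

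Tet3 had r = 0.63 (permutation adjusted p = 0.021), and 0.31 without those libraries, on which the relation rests. Its rho of 0.48 did not pass (permutation adjusted p = 0.0978), and r was 0.81 as deviations from group means with those libraries kept. Tet2 had r = 0.54 (permutation adjusted p = 0.053) and rho 0.33 (permutation adjusted p = 0.279). Its r was 0.09 without those libraries and, with them kept, 0.65 as deviations from group means. For Tet1 r was 0.52 (permutation adjusted p = 0.0618), while its rho of 0.70 passed (permutation adjusted p = 0.0103), and r was 0.19 as deviations from group means. Idh2, at r = -0.39, and D2hgdh, at r = -0.37, did not pass, but under median-of-ratios scaling they had -0.82 (permutation adjusted p = 0.000144) and -0.59 (permutation adjusted p = 0.0283). The members with the closest relation are also those with groups that did not overlap in anti-PD1 vs control. The cell cycle mean itself separates these groups without overlap, so this is not a separate observation.

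**Figure D4:**
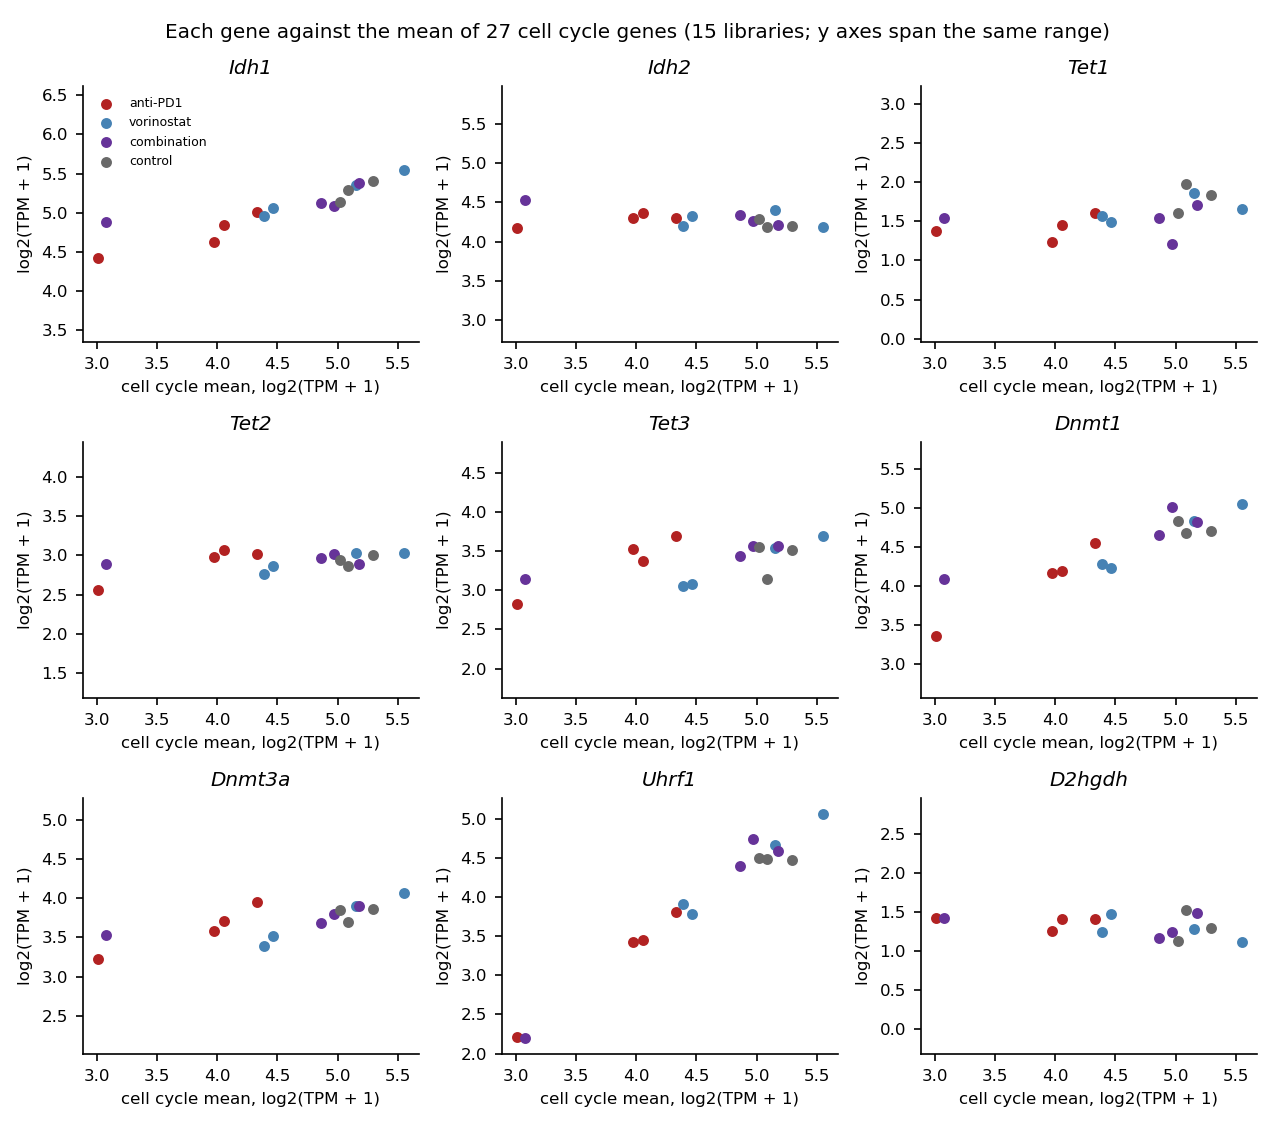
Log2(TPM + 1) of each gene (y axis, the same span in all panels) against the mean of 27 cell cycle genes (x axis, log2(TPM + 1)) in the 15 libraries, coloured by group. Uhrf1, Dnmt1 and Idh1 climb with the cell cycle mean (r = 0.99, 0.91 and 0.90), and Idh2 and D2hgdh do not.

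Some neuron, T cell and fibroblast markers also differed between anti-PD1 and control libraries. Of 16 neuron genes 15 were tested, and 3 rose in anti-PD1 vs control and 12 did not pass, beside the same 5.29% of all genes, with a median change of 0.95. Their summed level was 1439 to 3144 TPM with anti-PD1 against 906 to 1483 TPM in controls. Gad1, which makes GABA, averaged 67.0 ± 15.3 TPM with anti-PD1 and 23.5 ± 4.10 TPM in controls (change 1.46, SE 0.29, limma adjusted p = 0.0267), and Grin1 and Gad2 also passed. Across libraries the neuron mean had r = -0.90 with Dnmt1, -0.86 with Idh1, -0.83 with Dnmt3a, -0.82 with Uhrf1 and -0.73 with Tet3. The Spearman rho was -0.91, -0.88, -0.73, -0.86 and -0.67. Permutation p-values adjusted over 18 relations lay between 6e-05 and 0.00404 for r and between 9e-05 and 0.0127 for rho. Here too the share of all genes with relations this close was not computed. Of 8 T cell markers 3 were tested in anti-PD1 vs control and 1, Cd4, rose (5.18 ± 2.64 TPM with anti-PD1 and 0.855 ± 0.170 TPM in controls), and the 8 summed to 5.51 to 12.6 TPM with anti-PD1 against 1.65 to 2.44 TPM in controls. Of 8 pericyte and fibroblast markers 3 fell (Lum, Dcn and Col3a1) and 5 did not pass, with a median change of -1.07, and they summed to 55.9 to 81.4 TPM with anti-PD1 against 89.8 to 181.4 TPM in controls. The part of T cell and fibroblast markers in the members' levels was not tested. The tumours' lineage markers were present, with at least 214 TPM of Olig2 and 52.6 TPM of Pdgfra in every library. The 9 progenitor and glioma lineage markers had a summed level of 1616 to 6073 TPM with anti-PD1 against 4844 to 6994 TPM in controls. Olig1 makes up much of this sum, at 2410 ± 1245 TPM with anti-PD1 and 3447 ± 548 TPM in controls. In anti-PD1 vs control 0 of the 9 passed, beside the same 5.29% of all genes, with a median change of -0.69.

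With the cell cycle mean as a covariate, the change in anti-PD1 vs control was -0.18 for Idh1, 0.04 for Dnmt1 and 0.27 for Uhrf1, and with the neuron mean -0.24, -0.08 and -0.22. None passed with either covariate, beside 0.0567% of all genes with the cell cycle mean and 0.0928% with the neuron mean. The cell cycle means of anti-PD1 and control libraries do not overlap, and nor do their neuron means (5.46 to 6.47 against 4.83 to 5.39). With either covariate, group and list mean are therefore hard to tell apart. Beyond these fits, the part of cell cycle and neuron genes in the results was not tested.

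The genes whose pattern over 15 libraries was most like each member, by Pearson r of log2(TPM + 1) among 8914 protein-coding genes, are named as a description. Uhrf1 was most like Mcm6 (r = 0.995), Mcm2 and Tcf19, of which the Mcm genes encode parts of the replicative helicase. Dnmt1 was most like Cad (r = 0.99), a pyrimidine synthesis enzyme, Rnf138 and Cdk2, a kinase of S phase. Idh1 was most like Zfp113 (r = 0.98), Elovl6, a fatty acid elongase, and Evi5. Dnmt3a was most like Ist1 (r = 0.98), Rbak and Rcor1, Tet2 most like Smug1 (r = 0.95), a uracil DNA glycosylase, Usp47 and Nipa2, and Tet3 most like Zcchc14 (r = 0.96), Nlgn2 and Zfp384. Tet1 was most like Dele1 (r = 0.93), Gpbp1l1 and Klhl28, D2hgdh most like Map1b (r = 0.94), a neuronal microtubule protein, Rufy3 and Birc2, and Idh2 had the weakest nearest gene, Tmed8 (r = 0.81), with Foxj3 and Nhlrc1. Among the members, Dnmt1 and Uhrf1 had r = 0.92, Tet3 and Dnmt3a 0.91, and Tet2 and Tet3 0.85, whereas Tet1 and Tet2 had 0.11 and Idh1 and Idh2 -0.17.

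No gene of the 4 surrounding pathways passed in anti-PD1 vs control, where 5.29% of all genes did. With lists this short, that does not show that the pathways were unchanged. Of 23 genes of IDH, 2-hydroxyglutarate and 2-oxoglutarate metabolism 0 passed, with a median change of -0.12. Idh3a, a subunit of the NAD-linked enzyme, had 85.6 ± 2.06 TPM with anti-PD1 and 99.6 ± 2.54 TPM in controls (change -0.22, SE 0.07, limma adjusted p = 0.0757), and fumarase Fh1 19.7 ± 0.684 TPM with anti-PD1 and 23.1 ± 0.780 TPM in controls (change -0.23, SE 0.08, limma adjusted p = 0.0804). Of 14 genes of methylation maintenance and reading 11 were tested and 0 passed, with a median of -0.17. The chromatin remodeller Hells had 4.05 ± 1.71 TPM with anti-PD1 and 9.17 ± 0.418 TPM in controls (change -1.09, SE 0.40, limma adjusted p = 0.0881), and Ezh2, a histone methyltransferase, a change of -1.0 (SE 0.37, limma adjusted p = 0.0922). Of 13 genes of active demethylation 11 were tested and 0 passed, with a median of -0.10; the repair genes Xrcc1 and Apex1 had changes of -0.46 (SE 0.17, limma adjusted p = 0.0889) and -0.71 (SE 0.28, limma adjusted p = 0.105). Of 21 other 2-oxoglutarate-dependent dioxygenases 0 passed, with a median of -0.11. The histone demethylase Kdm7a had 14.2 ± 1.93 TPM with anti-PD1 and 9.76 ± 0.602 TPM in controls (change 0.50, SE 0.14, limma adjusted p = 0.0506), and Alkbh3 a change of -0.41 (SE 0.16, limma adjusted p = 0.106).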

How the data were processed

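The authors deposited 1 table of TPM values, with 38172 symbols and 15 libraries. FastQC, HISAT2, StringTie and DESeq2 with build mm10 are listed, per the submitters' processing notes, without versions. The kit is unstranded, and no source used here explains "adj" in the table's name. TPM times gene span (GENCODE vM21) gave whole reads, within 0.01 read in every library, for 36035 of 36477 symbols with 1 annotated gene (98.8%). TPM summed to between 996108 and 997722.

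Tests used limma 3.58.1 (R 4.3.3; lmFit, contrasts.fit, eBayes with trend) on log2(TPM + 1). The filter of 1 TPM in 3 or more libraries left 19390 genes, with all 15 libraries in 1 fit and Benjamini-Hochberg adjustment at 0.05. A change on this scale understates that of low genes. Relations used 100000 permutations, two-sided, for which the smallest possible p is 1e-05. Alternatives were another pseudocount (0.1), no filter, median-of-ratios scaling, limma voom on recovered reads, 2-group fits, a replicate block, list means as covariates and leaving out each library. The planned count test on recovered reads was not run, and voom was chosen in its place after the files were seen. Deviations from group means of same-numbered anti-PD1 and combination libraries had correlations of 0.20 to 0.64. For anti-PD1 and vorinostat they lay between -0.28 and 0.55, and for vorinostat and combination between -0.16 and 0.44. Differently numbered libraries were not compared, and no label states a pairing. Members and lists were chosen with earlier results of these data known. All 9 genes are named, with the 3 most alike genes each and the 2 of smallest p per pathway list. Motif words were chosen after the promoters had been seen. Promoters are from RefSeq, GRCm38.p6, in which all 9 genes matched.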

Additional observations from a re-analysis of the deposited data

Results flagged for a closer look

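In 39 groups of 4 libraries (9 genes and 4 ratios in 3 treatment groups), 3 had a library far from the others by Dixon's test, and chance flags about 1 in 20. D2hgdh had 1.39 TPM in anti-PD1 library 4, the lowest of its group, while the 3 others had 1.66 to 1.67 TPM. The log2 ratio of Uhrf1 to Dnmt1 was -1.36 in anti-PD1 library 2 and -2.16 in combination library 2, each the lowest of its group. These 2 libraries also had the lowest cell cycle means, 3.01 and 3.08, and whether cell cycle genes have a part in the ratio was not tested.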

How the results depend on the processing

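The 0 of 9 genes passing in anti-PD1 vs control was the least settled count. With the replicate block 1 gene passed, Idh1 (-0.52, limma adjusted p = 0.0350), as did 13.5% of all genes, and leaving out 1 library in turn gave between 0 and 3 genes: 3 without anti-PD1 library 3 (Idh1, Tet1 and Dnmt1, beside 25.8% of all genes), and 1 each without vorinostat library 3 (Idh1, beside 10.1%) and combination library 2 (Uhrf1, beside 9.72%). In the 5 other comparisons 0 of 9 passed under every alternative run. In combination vs anti-PD1, where the correlations of same-numbered libraries were all positive, the block changed no call of these 9 genes. For anti-PD1 and control the correlations of libraries 1, 2 and 3 were 0.12, 0.05 and 0.30. These values do not settle whether the samples are paired, and no label states it.

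All genes called in anti-PD1 vs control, 1026, came to 2621 with the block, 580 with voom, 493 without a filter, 397 with the 2 groups alone, 18 with the neuron and 11 with the cell cycle covariate, and to between 0 and 4982 with 1 library left out (control library 1 and anti-PD1 library 3). Of the libraries left out, vorinostat library 4 alone kept that count within 1.5 times. Called genes in combination vs anti-PD1, 3, lay between 0 and 671 (without anti-PD1 library 3), with 115 under the block, and those in combination vs control, 4, to between 1 and 23. With 1 or 2 called genes, the counts of the other comparisons lay between 0 and 9 under all alternatives.

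Of 1233 values of member changes under alternatives, 152 had another sign than the reported one, over 40 of the 54 changes, and none of these passed. The cause was not tested. Under median-of-ratios scaling, Tet2 was 0.11 and Tet3 0.097 in anti-PD1 vs control. Idh1 was 0.014 and Tet2 0.039 in vorinostat vs control. Idh2 was -0.084, Tet1 -0.0076, Tet2 -0.089, Tet3 -0.055 and Dnmt3a -0.018 in combination vs anti-PD1. Tet2 was -0.020 and Dnmt3a -0.035 in combination vs vorinostat. Tet2 was -0.13 and Tet3 -0.055 in the interaction. With voom, Tet2 was 0.15 and Tet3 0.14 in anti-PD1 vs control. Idh1 was 0.020, Tet2 0.048, Tet3 0.0046 and D2hgdh 0.0060 in vorinostat vs control. Idh2 was -0.11, Tet1 -0.043, Tet2 -0.12, Tet3 -0.077 and Dnmt3a -0.037 in combination vs anti-PD1. Tet2 was -0.016 and Dnmt3a -0.030 in combination vs vorinostat. Tet2 was -0.17, Tet3 -0.082 and Dnmt3a -0.016 in the interaction. With the neuron covariate, Tet2 was 0.13, Tet3 0.42, Dnmt3a 0.19 and D2hgdh -0.084 in anti-PD1 vs control. Idh1 was 0.026, Tet2 0.022, Tet3 0.050, Dnmt3a 0.0051 and Uhrf1 0.10 in vorinostat vs control. Dnmt1 was 0.016 and D2hgdh -0.013 in combination vs control. Tet2 was -0.099, Tet3 -0.30, Dnmt3a -0.19, Uhrf1 -0.10 and D2hgdh 0.071 in combination vs anti-PD1. Dnmt3a was -0.0088 in combination vs vorinostat. Idh2 was 0.051, Tet2 -0.12, Tet3 -0.35, Dnmt3a -0.20, Uhrf1 -0.20 and D2hgdh 0.14 in the interaction. With the cell cycle covariate, Idh2 was -0.014, Tet2 0.16, Tet3 0.43, Dnmt1 0.035, Dnmt3a 0.20, Uhrf1 0.27 and D2hgdh -0.028 in anti-PD1 vs control. Idh1 was 0.023, Tet2 0.020, Tet3 0.033 and Uhrf1 0.15 in vorinostat vs control. Idh1 was 0.019, Dnmt1 0.24, Dnmt3a 0.11, Uhrf1 0.22 and D2hgdh -0.028 in combination vs control. Tet2 was -0.063, Tet3 -0.18, Dnmt3a -0.091, Uhrf1 -0.049 and D2hgdh 4.7e-05 in combination vs anti-PD1. Uhrf1 was 0.063 in combination vs vorinostat. Idh2 was 0.052, Tet2 -0.083, Tet3 -0.21, Dnmt3a -0.084, Uhrf1 -0.20 and D2hgdh 0.055 in the interaction. With the replicate block, Tet2 was -0.0037 in combination vs control. Ranges that hold 0 came from leaving out 1 library in turn. Tet2 lay at -0.084 to 0.086, Tet3 -0.18 to 0.13 and D2hgdh -0.037 to 0.16 in anti-PD1 vs control. Idh1 lay at -0.15 to 0.045, Tet2 -0.053 to 0.038, Tet3 -0.19 to 0.039, Dnmt3a -0.20 to 0.028, Uhrf1 -0.37 to 0.054 and D2hgdh -0.13 to 0.066 in vorinostat vs control. Tet2 lay at -0.032 to 0.040, Tet3 -0.10 to 0.12, Dnmt1 -0.22 to 0.094, Uhrf1 -0.76 to 0.086 and D2hgdh -0.082 to 0.12 in combination vs control. Idh2 lay at -0.0093 to 0.094, Tet2 -0.081 to 0.089, Tet3 -0.10 to 0.19, Dnmt3a -0.016 to 0.23 and D2hgdh -0.095 to 0.0085 in combination vs anti-PD1. Idh2 lay at -0.0031 to 0.10, Tet2 -0.032 to 0.059, Tet3 -0.010 to 0.20, Dnmt1 -0.074 to 0.24, Dnmt3a -0.10 to 0.12, Uhrf1 -0.63 to 0.22 and D2hgdh -0.0045 to 0.12 in combination vs vorinostat. Idh2 lay at -0.066 to 0.039, Tet2 -0.065 to 0.11, Tet3 -0.048 to 0.26 and D2hgdh -0.11 to 0.089 in the interaction. Other changes kept their sign with 1 library left out in turn but moved by over 1.5 times. Idh2 ranged over 0.036 to 0.099, Dnmt1 -0.83 to -0.43 and Dnmt3a -0.30 to -0.056 in anti-PD1 vs control. Idh2 ranged over 0.014 to 0.090, Tet1 -0.26 to -0.074 and Dnmt1 -0.29 to -0.019 in vorinostat vs control. Idh1 ranged over -0.25 to -0.081, Idh2 0.054 to 0.16 and Dnmt3a -0.13 to -0.0068 in combination vs control. Tet1 ranged over 0.013 to 0.18, Dnmt1 0.34 to 0.76 and Uhrf1 0.42 to 1.35 in combination vs anti-PD1. Idh1 ranged over -0.20 to -0.0050 and Tet1 -0.21 to -0.047 in combination vs vorinostat. Tet1 ranged over 0.16 to 0.35, Dnmt3a 0.065 to 0.31 and Uhrf1 0.55 to 1.49 in the interaction. Among the relations, Tet3 and the cell cycle mean no longer passed under median-of-ratios scaling (r = 0.49, permutation adjusted p = 0.0833), D2hgdh and the neuron mean passed there (0.75) and with the pseudocount of 0.1 (0.58), and Idh2 and the neuron mean passed under that scaling at 0.74. Groups hold 3 or 4 libraries, and 48 of the 54 changes have a 95% interval that holds 0.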
